A study of Mus musculus with 6 samples.

Results

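The CDK inhibitors and p53 target genes described here are Cdkn1a, Cdkn1b, Cdkn2a, Cdkn2b and Cdkn2c, which encode inhibitors of the kinases that drive the cell cycle, and Mdm2, Ccng1, Phlda3, Gdf15 and Zmat3, which are known targets of the transcription factor p53. These 10 genes were chosen by name, and each matched 1 row among the 54532 genes of the deposited count table. All 10 had enough reads to enter the test, which covered 13705 genes. The samples were MSCs (mesenchymal stromal cells, which can give rise to bone, cartilage and fat) from mouse alveolar bone, the part of the jaw that holds the teeth, and their RNA was sequenced in bulk. The tested group was 3 libraries from Ccrl2-KO mice (KO), and it was compared with 3 libraries from WT mice. Ccrl2 encodes an atypical receptor that binds chemerin. The submitters describe the cells of both genotypes as induced towards bone and inflamed with TNFα, but every column of the count table carries the word Ctrl, which no label explains, so whether the counted cells were exposed to TNFα could not be settled. Either way the labels give KO and WT the same conditions, and no effect of TNFα can be read from these libraries. The design of the null allele, the strain, the age of the mice and the TNFα dose are not given in the sources used here, and the submitters call the replicates biological without saying whether each is a separate mouse, so p-values may reflect culture spread alone.

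Background on the pathway is as follows. In response to DNA damage and other stress, p53 activates Cdkn1a, whose product p21 binds cyclin-CDK complexes and halts the cell before DNA replication, and it activates Mdm2, whose product marks p53 for destruction and so closes a feedback loop. The INK4 proteins, products of Cdkn2a, Cdkn2b, Cdkn2c and Cdkn2d, bind CDK4 and CDK6 and keep the retinoblastoma protein active, while p27, the product of Cdkn1b, restrains CDK2 in resting cells. The p16 transcript of Cdkn2a is known to accumulate in stromal cells that age in culture.

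p53 recognises a pair of 10-base motifs, here called decamers, and windows around gene starts (250 bases before to 50 after) were searched for them on both strands, with the consensus p53 motif. RefSeq windows on GRCm38.p6 were found for 9 of the 10 genes, 13 windows in all, and Zmat3 was not matched. The p53 decamer was present in 3 of the 13 windows, against 8.36% of 32851 windows over all genes, and a pair of decamers with a spacer of up to 13 bases was present in 1, the upstream start of Cdkn1a, against 0.0731% of all windows. That pair lay at positions -73 and -51 from the start, 12 bases apart, and consisted of GGACTAGCTT and GAACATGTCT. Only exact matches to the consensus were counted. The 10 bases directly after GAACATGTCT, tgacatgttc, differ from the consensus at 1 base, so they were not counted or put in capitals. The search therefore does not settle which decamers form the p53 site of Cdkn1a. The upstream start lies 2790 bases before the other annotated start of Cdkn1a, whose window held no decamer. The window of the upstream start (chr17:29090729-29091028, plus strand) follows with the decamers in capitals, together with the 100 bases around the single decamers of Mdm2 (chr10:117710890-117710989, minus strand) and Ccng1 (chr11:40755417-40755516, minus strand), which lay at positions -186 and -185.
Cdkn1a: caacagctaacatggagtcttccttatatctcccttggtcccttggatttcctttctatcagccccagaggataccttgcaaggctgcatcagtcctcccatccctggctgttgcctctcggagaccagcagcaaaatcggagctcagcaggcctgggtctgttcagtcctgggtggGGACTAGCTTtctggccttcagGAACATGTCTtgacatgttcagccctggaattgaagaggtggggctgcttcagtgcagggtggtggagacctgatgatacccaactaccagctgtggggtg
Mdm2: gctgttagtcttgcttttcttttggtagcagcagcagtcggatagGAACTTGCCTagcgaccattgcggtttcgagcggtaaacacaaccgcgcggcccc
Ccng1: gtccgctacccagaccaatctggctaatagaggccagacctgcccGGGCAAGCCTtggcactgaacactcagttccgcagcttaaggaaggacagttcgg
The window of Cdkn2b (chr4:89310983-89311282, minus strand) is given because this gene differed most between the genotypes. It held no p53 decamer and 1 GC box (GGGCGG, either strand, in capitals), a motif found in 35.7% of all windows. A match is a description of letters and says nothing of whether p53 was bound.
Cdkn2b: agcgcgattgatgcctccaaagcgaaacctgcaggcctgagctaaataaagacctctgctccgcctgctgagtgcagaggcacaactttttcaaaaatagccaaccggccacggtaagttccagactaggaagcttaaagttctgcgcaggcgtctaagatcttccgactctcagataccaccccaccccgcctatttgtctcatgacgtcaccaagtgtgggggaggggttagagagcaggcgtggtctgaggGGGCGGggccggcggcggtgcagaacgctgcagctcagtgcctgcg

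None of the 10 genes was called between KO and WT at an adjusted p under 0.05, where 2.67% of all 13705 genes were called, 0.365% higher and 2.31% lower in KO (edgeR quasi-likelihood test). DESeq2 called 1 of the 10, against 4.79% of all genes. The 3 most strongly counted, Ccng1, Cdkn1a and Phlda3, had overlapping KO and WT libraries. Log2 fold changes of the 10 genes ran from -0.43 to 0.23 with a median of -0.06, against a median of 0.02 over all tested genes, and 3 were positive and 7 negative. The median absolute log2 fold change was 0.09, against 0.20 over all tested genes. The 95% intervals of all 10 excluded a 2-fold difference in either direction, the widest being that of Gdf15. One gene, Cdkn2b, had an unadjusted p under 0.05 (14.5% of all tested genes did).

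**Figure D1:**
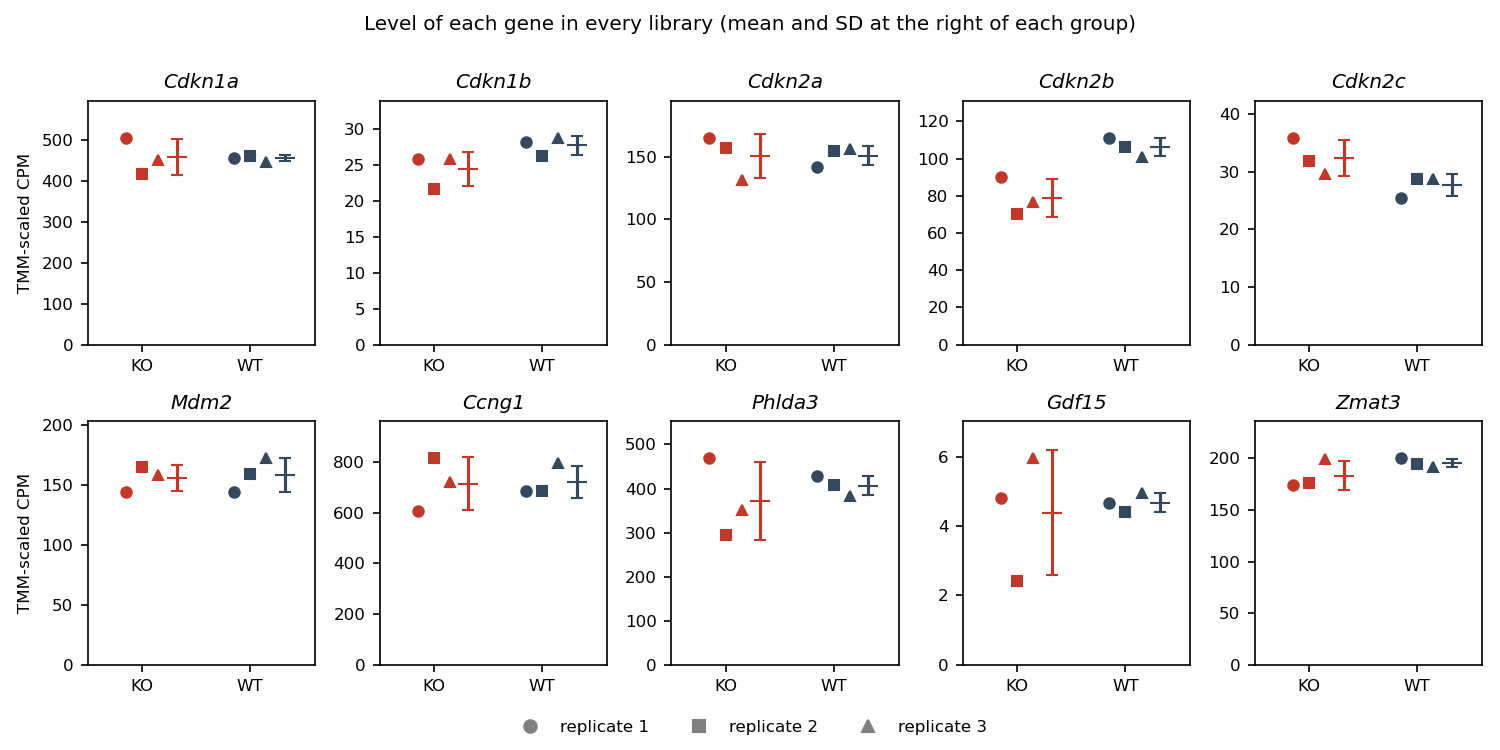
Level in CPM, counts scaled to a common library size with TMM factors (vertical axis from 0, own scale in each panel) of the 10 genes in the 3 KO libraries (left) and 3 WT libraries (right), 1 symbol per replicate, with the mean and SD beside each group. Cdkn2b lay between 70.14 and 90.01 CPM in KO and between 101.1 and 111.0 CPM in WT, while Cdkn1a, Mdm2 and Ccng1 overlapped.

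Cdkn1a (ENSMUSG00000023067, chromosome 17, 29090976 to 29100727, plus strand, GRCm38) is the p21 gene. It had 8395, 6757 and 8483 counts in KO replicates 1 to 3, which is 503.8, 416.8 and 450.5 CPM (counts scaled to a common library size with TMM factors), and 7727, 7320 and 8217 counts in WT replicates 1 to 3, or 456, 461 and 446 CPM. KO replicate 1 was the highest and KO replicate 2 the lowest of the 6, and the groups overlapped. The means were 457 ± 43.8 CPM in KO and 454.6 ± 7.64 CPM in WT (SD, n = 3 each). The log2 fold change was 0.01 ± 0.11 (SE) with adjusted p = 0.980 (edgeR), and the 95% interval allowed ratios of KO to WT from 0.853 to 1.185. Of the 50-base words in its annotated transcripts, 8.49% also occur in transcripts of other genes, and a small gene on the opposite strand, AC167363.2, had 19 to 90 counts, so a minor part of its reads may be shared.

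Cdkn1b (ENSMUSG00000003031, chromosome 6, 134920401 to 134925513, plus strand) encodes p27. It had 431, 352 and 487 counts in KO replicates 1 to 3, or 25.9, 21.7 and 25.9 CPM, and 477, 417 and 529 counts in WT replicates 1 to 3, or 28.2, 26.3 and 28.7 CPM. All KO libraries lay below all WT libraries on this scale, but the groups overlapped when library totals alone were used. It differed by -0.18 ± 0.13 on the log2 scale (SE, edgeR adjusted p = 0.535), with an interval of ratios from 0.722 to 1.08.

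Cdkn2b (ENSMUSG00000073802, chromosome 4, 89306299 to 89311039, minus strand) encodes the INK4 protein p15, which TGF-beta is known to induce. It had 1500, 1137 and 1439 counts in KO replicates 1 to 3 and 1881, 1687 and 1861 counts in WT replicates 1 to 3. Scaled, these were 90.01, 70.14 and 76.42 CPM in KO and 111, 106 and 101 CPM in WT. Every KO library lay below every WT library, also with library totals alone. The log2 fold change was -0.43 ± 0.12 (SE), a ratio of KO to WT between 0.620 and 0.890, with unadjusted p = 0.00417 and adjusted p = 0.102 (edgeR). It thus missed the threshold over all genes. It passed with DESeq2 (adjusted p = 0.0410), which called 4.79% of all genes, 0.898% higher and 3.89% lower in KO. It also passed with edgeR without the filter on low counts (adjusted p = 0.0360), which called 3.67%, 1.07% higher and 2.6% lower. Without KO replicate 1 its log2 fold change was -0.55 (adjusted p = 0.0363), where 2.15% were called, 0.326% higher and 1.83% lower. Over all settings tried its log2 fold change stayed negative, and its adjusted p ranged from 0.0360 to 0.452.

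Cdkn2a (ENSMUSG00000044303, chromosome 4, 89274471 to 89294653, minus strand) lies beside Cdkn2b and encodes p16 and, from a separate first exon, the p53 activator Arf. The table has 1 count for both transcripts, so they cannot be told apart. It had 2746, 2541 and 2468 counts in KO replicates 1 to 3, or 165, 157 and 131 CPM, and 2408, 2449 and 2870 counts in WT replicates 1 to 3, or 142, 154 and 156 CPM. The groups overlapped, and the log2 fold change was 0.00 ± 0.11 (SE, edgeR adjusted p = 0.999, ratios from 0.839 to 1.192). Mtap, the next gene of the locus, was not called (log2 fold change 0.15 ± 0.12, adjusted p = 0.590), and the neighbours Dmrta1, Ifna1 and Elavl2 were too low to test. Within each library, Cdkn2b had 0.546, 0.448 and 0.583 counts per count of Cdkn2a in KO replicates 1 to 3 and 0.781, 0.689 and 0.648 in WT replicates 1 to 3. This ratio, chosen after the values were seen, does not depend on library scaling. It did not overlap between the groups (exact permutation test, two-sided p = 0.1, the smallest that 3 against 3 libraries can give, and 0.2 adjusted over the 12 sums, shares and ratios computed).

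Cdkn2c (ENSMUSG00000028551, chromosome 4, 109660876 to 109667189, minus strand) encodes p18, an INK4 protein. It had 597, 517 and 557 counts in KO replicates 1 to 3, or 35.8, 31.9 and 29.6 CPM, and 431, 456 and 529 counts in WT replicates 1 to 3, or 25.4, 28.8 and 28.7 CPM. All KO libraries lay above all WT libraries, though by a small margin. KO over WT was 0.23 ± 0.13 on the log2 scale (SE, edgeR adjusted p = 0.440), with ratios from 0.962 to 1.431. The 10 genes thus had 3 without overlap between the groups, Cdkn2b and Cdkn1b with KO below and Cdkn2c with KO above. Over all tested genes 20.6% did not overlap, 11.8% with KO below and 8.84% with KO above. With library totals alone Cdkn2b and Cdkn2c did not overlap, against 20.9% of all genes, 11% with KO below and 9.9% with KO above.

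**Figure D2:**
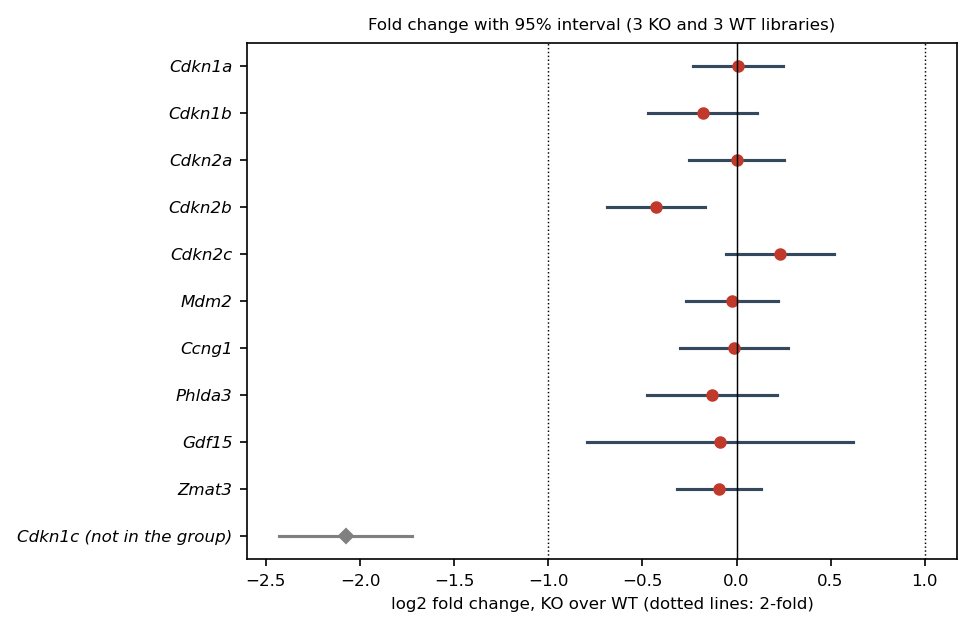
Log2 fold change of KO over WT (points) with 95% intervals (lines) from the edgeR fit for the 10 genes, and for Cdkn1c, which is not one of them. Dotted vertical lines mark 2-fold. The interval of Cdkn2b runs from -0.69 to -0.17, the other 9 include 0, and that of Cdkn1c lies between -2.43 and -1.73.

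Among the p53 targets, Mdm2 (ENSMUSG00000020184, chromosome 10, 117688875 to 117710758, minus strand), the ubiquitin ligase of p53, had 2401, 2678 and 2991 counts in KO replicates 1 to 3 and 2444, 2528 and 3174 in WT replicates 1 to 3. The scaled values were 144, 165 and 159 CPM in KO and 144, 159 and 172 CPM in WT, and they overlapped. Its log2 fold change was -0.02 ± 0.11 (SE, edgeR adjusted p = 0.935, ratios from 0.831 to 1.164). Counts of Mdm2 per count of Cdkn1a averaged 0.345 ± 0.0556 in KO and 0.349 ± 0.0352 in WT (SD, n = 3 each).

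Ccng1 (ENSMUSG00000020326, chromosome 11, 40748552 to 40755311, minus strand) encodes cyclin G1, which brings a phosphatase to Mdm2. It had the most counts of the 10 genes, 10089, 13187 and 13602 in KO replicates 1 to 3 and 11591, 10853 and 14640 in WT replicates 1 to 3. This gave 605, 813.5 and 722 CPM in KO and 684, 684 and 795 CPM in WT. KO libraries were both the lowest and the highest. The log2 fold change was -0.01 ± 0.13 (SE, edgeR adjusted p = 0.967, ratios from 0.811 to 1.208), and with library totals alone it was 0.00.

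Phlda3 (ENSMUSG00000041801, chromosome 1, 135766119 to 135769136, plus strand) encodes a pleckstrin-homology protein that restrains Akt. It had 7806, 4777 and 6624 counts in KO replicates 1 to 3, or 468, 295 and 352 CPM, and 7243, 6469 and 7073 counts in WT replicates 1 to 3, or 427, 408 and 384 CPM. The KO libraries spread over 371.6 ± 88.6 CPM and the WT libraries over 406.5 ± 21.7 CPM (SD, n = 3 each), with WT inside the KO range. On the log2 scale KO over WT was -0.13 ± 0.16 (SE, edgeR adjusted p = 0.716), and it was 0.01 without KO replicate 2.

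Gdf15 (ENSMUSG00000038508, chromosome 8, 70629393 to 70632456, minus strand) encodes a secreted stress cytokine of the TGF-beta superfamily. It was the lowest of the 10, with 80, 39 and 112 counts in KO replicates 1 to 3, or 4.80, 2.41 and 5.95 CPM, and 79, 70 and 91 counts in WT replicates 1 to 3, or 4.66, 4.41 and 4.94 CPM. KO libraries were again the lowest and the highest. The log2 fold change was -0.09 ± 0.32 (SE, edgeR adjusted p = 0.913), with ratios from 0.576 to 1.537, and 0.20 without KO replicate 2. At 39 counts the counting error alone is 16% of the value, and the spread between KO libraries (4.39 ± 1.81 CPM, SD, n = 3) was larger. The data thus do not tell apart ratios between 0.576 and 1.537, and the smallest difference that could be called was not computed.

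Zmat3 (ENSMUSG00000027663, chromosome 3, 32334792 to 32366014, minus strand) encodes a zinc finger protein that binds RNA. It had 2910, 2856 and 3750 counts in KO replicates 1 to 3 and 3389, 3094 and 3531 counts in WT replicates 1 to 3, with means of 183 ± 13.7 CPM in KO and 195.6 ± 4.13 CPM in WT (SD, n = 3 each). The groups overlapped through KO replicate 3, and the log2 fold change was -0.09 ± 0.10 (SE, edgeR adjusted p = 0.680, ratios from 0.802 to 1.095). Its values spanned 0.20 on the log2 scale over the 6 libraries. Among the 3857 tested genes at 50 CPM or more, 7.75% spanned less, against 17.8% for Mdm2, 20.3% for Cdkn1a and 78.6% for Phlda3.

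Levels of different genes can be compared only per length. In RPKM, the CPM divided by the deposited gene length in kilobases, Phlda3 was the highest of the 10 with a mean of 249.6 over the 6 libraries, followed by Ccng1 at 204 RPKM, and their libraries overlapped. Cdkn2a (129 RPKM) and Cdkn1a (128 RPKM) came next and overlapped too. Below them stood Cdkn2b at 66.5 RPKM, Mdm2 at 31.0, Zmat3 at 16.6, Cdkn2c at 11.2, Cdkn1b at 5.73 and Gdf15 at 2.44 RPKM. From Cdkn2b down, the libraries of neighbours in this order did not overlap.

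The CDK inhibitor transcripts of these cells were thus mostly those of Cdkn1a, Cdkn2a and Cdkn2b. Adding Cdkn1c and Cdkn2d, the remaining genes of the Cip/Kip and INK4 families, the 7 genes summed to 381, 333 and 322 RPKM in KO replicates 1 to 3 and to 377, 389 and 380.2 RPKM in WT replicates 1 to 3 (exact permutation test, two-sided p = 0.3). Cdkn1a held 37.3% ± 2.09 of this sum in KO and 33.5% ± 0.519 in WT (SD, n = 3 each), Cdkn2a held 37.3% ± 2.73 in KO and 33.7% ± 1.41 in WT, while Cdkn2b held 15.2% to 17.1% in KO and 19.1% to 21.2% in WT. Cdkn1c held 1.42% to 1.80% in KO and 5.96% to 6.46% in WT, and Cdkn2c held 3.42% to 3.57% in KO and 2.51% to 2.81% in WT. The shares of Cdkn1a, Cdkn1c, Cdkn2b and Cdkn2c did not overlap between the groups, and those of Cdkn1b, Cdkn2a and Cdkn2d did (exact permutation p = 0.1 for each of the 4 that did not, the smallest possible, and 0.2 adjusted over 12 quantities). Shares of a sum are tied to one another, so a lower share of one gene raises the others.

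**Figure D3:**
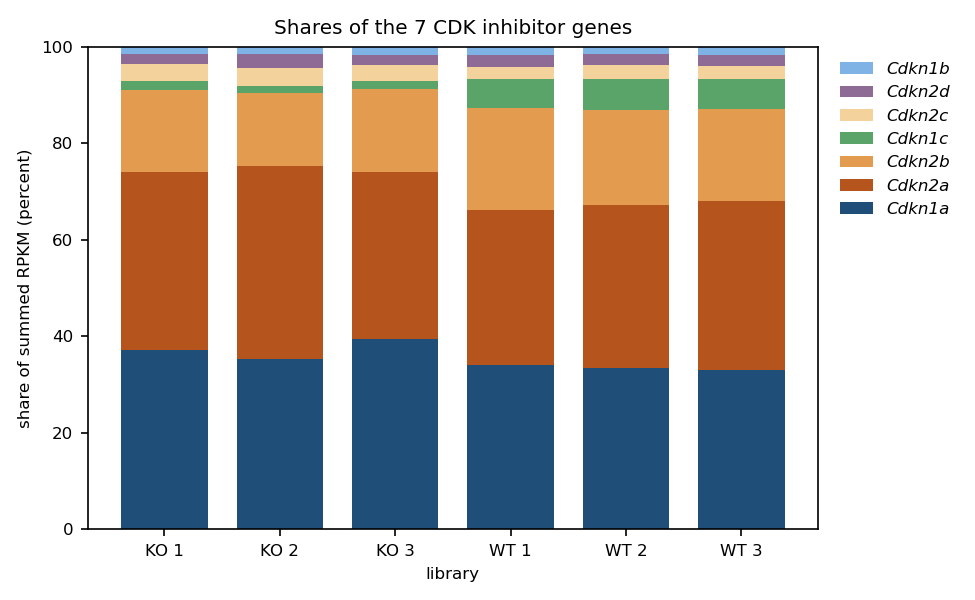
Share of each of 7 CDK inhibitor genes in their summed RPKM (percent, vertical axis from 0) in the 3 KO libraries (left) and the 3 WT libraries (right). Cdkn1c takes 1.42% to 1.80% in KO and 5.96% to 6.46% in WT, and Cdkn2b 15.2% to 17.1% in KO and 19.1% to 21.2% in WT.

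Cdkn1c, the imprinted gene of the Cip/Kip inhibitor p57 (chromosome 7, 143458339 to 143461050, minus strand), is not one of the 10 but was the only CDK inhibitor called with the main edgeR settings. It fell to 14.0, 9.62 and 10.7 CPM in KO replicates 1 to 3, against 45.8, 51.2 and 47.8 CPM in WT replicates 1 to 3, a log2 fold change of -2.08 ± 0.16 (SE, 4.22-fold lower in KO, edgeR adjusted p = 0.000130), and it was called under every setting tried. Of the other 3 genes of that list, Cdkn2d (-0.14 ± 0.19, adjusted p = 0.737), Cdkn2aip (0.26 ± 0.18, adjusted p = 0.506) and Cables1 (-0.07) were not called.

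A wider list of p53 targets was examined beside the genes above. Of 46 further targets, all tested, 0 were called by edgeR and 1 by DESeq2 (4.79% of all genes by DESeq2). In 4 the unadjusted p was under 0.05 (14.5% of all genes), and the median log2 fold change was -0.06 with 17 positive and 29 negative. Those of smallest p were Steap3, a ferrireductase (2.22 ± 0.280 CPM in KO and 4.51 ± 0.746 CPM in WT, SD, n = 3 each, log2 fold change -1.02 ± 0.28, SE, adjusted p = 0.101), Rprm, an inhibitor of the G2 to M transition (-0.66 ± 0.22, adjusted p = 0.199), and Gadd45a, a DNA damage response gene (0.69 ± 0.24, adjusted p = 0.210). Steap3 is the gene that DESeq2 called (adjusted p = 0.0408, range over all settings 0.0408 to 0.433). The transcript of p53 itself, Trp53, averaged 72.9 CPM in KO and 73.7 CPM in WT (log2 fold change -0.02, adjusted p = 0.972). Of 17 tested genes of p53 and its regulators, 0 were called by edgeR or DESeq2 and 2 had an unadjusted p under 0.05, with a median of 0.02. The smallest p were those of Sirt1, a deacetylase that acts on p53 (0.40 ± 0.13, adjusted p = 0.197), Trp63 and Npm1. The p53 relative Trp63 averaged 0.583 CPM in KO and 1.68 CPM in WT (-1.52 ± 0.68, adjusted p = 0.339). Its counts were 15, 6 and 9 in KO replicates 1 to 3 and 42, 6 and 40 in WT replicates 1 to 3, so the groups overlapped. Npm1, nucleophosmin (0.51 ± 0.28, adjusted p = 0.440), also overlapped and was highest in KO replicate 2, at 517 CPM. Its log2 fold change was as low as 0.15 with single libraries left out.

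Downstream of the inhibitors, a list of 10 genes held CDKs, cyclins and Pcna. Of these 0 were called by edgeR or DESeq2 and 3 (Ccnd1, Ccna2 and Pcna) had an unadjusted p under 0.05, against 14.5% of all genes (median -0.02). Ccnd1, cyclin D1 and partner of CDK4 and CDK6, averaged 926 ± 18.2 CPM in KO and 1142 ± 94.4 CPM in WT (SD, n = 3 each, log2 fold change -0.30 ± 0.10, SE, adjusted p = 0.215), while Ccna2, cyclin A2 (0.36 ± 0.14, adjusted p = 0.278), and Pcna, the replication clamp (0.42 ± 0.19, adjusted p = 0.339), had positive values. Of 13 retinoblastoma family and E2F genes 0 were called by edgeR or DESeq2 and 3 had an unadjusted p under 0.05, against the same 14.5% (median -0.03). E2f7 (0.51 ± 0.18), E2f8 (0.40 ± 0.17) and E2f5 (0.45 ± 0.20) had the smallest p, with adjusted p from 0.230 to 0.338. Of 22 proliferation genes 0 were called by edgeR or DESeq2 and 6 had an unadjusted p under 0.05 (14.5% of all genes). Positive values were found in 21 of the 22, with a median of 0.22, where 7158 of all 13705 genes were positive. Mcm5 (0.45 ± 0.13, adjusted p = 0.134) and Mcm6 (0.31 ± 0.10, adjusted p = 0.191), helicase subunits of replication, and Birc5, survivin (0.50 ± 0.21, adjusted p = 0.314), had the smallest p. In 6 of the 22 all KO libraries lay above all WT libraries (8.84% of all genes did). The list was chosen with earlier results of these data known, so these shares only describe it. Pcna and Birc5 overlapped between the groups and were highest in KO replicate 2, at 99.6 and 31.8 CPM. With single libraries left out their log2 fold changes were as low as 0.18 and 0.22.

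Of 18 regulators of the INK4 and p27 genes, 0 were called by edgeR and 1 by DESeq2 (4.79% of all genes by DESeq2). In 2 the unadjusted p was under 0.05 (14.5% of all genes), and the median was 0.06. Foxo3, a transcription factor known to activate Cdkn1b, had the smallest p, with 88.4 ± 4.11 CPM in KO and 122 ± 12.4 CPM in WT (SD, n = 3 each, log2 fold change -0.46 ± 0.11, SE, adjusted p = 0.0591), and it passed with DESeq2 (Foxo3 adjusted p = 0.0103), without the filter on low counts (0.0170) and without KO replicate 2 (0.0323), with a range of 0.0103 to 0.332 over all settings. Ezh2, the methyltransferase of the Polycomb complex that is known to silence Cdkn2a (0.42 ± 0.16, adjusted p = 0.271), and Id1 (-0.27 ± 0.15, adjusted p = 0.418) followed.

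Gdf15 is also a known target of the amino acid and unfolded protein response, whose other genes were examined beside it. Of 12 tested genes of that response 0 were called by edgeR and 2 by DESeq2, where DESeq2 called 4.79% of all genes. In 8 the unadjusted p was under 0.05 (14.5% of all genes), and 11 had positive values (7158 of all 13705 genes did), with a median of 0.29. In 11 of them every KO library lay above every WT library, against 8.84% of all genes, and 11 did so with library totals alone. As this list was chosen with earlier results of these data known, these shares describe it and are not a test. Asns, asparagine synthetase, averaged 161 ± 18.8 CPM in KO and 115 ± 4.21 CPM in WT (SD, n = 3 each, log2 fold change 0.48 ± 0.11, SE, adjusted p = 0.0508), Chac1, a glutathione-degrading enzyme, averaged 23.7 ± 4.16 CPM in KO and 14.7 ± 0.924 CPM in WT (0.69 ± 0.16, adjusted p = 0.0565), and Ddit3, the transcription factor CHOP, averaged 30.3 ± 2.89 CPM in KO and 22.9 ± 2.37 CPM in WT (0.41 ± 0.14, adjusted p = 0.204). Asns and Chac1 stood at the threshold, and both passed with DESeq2 (adjusted p = 0.00530 and 0.00922) and with library totals alone (0.0408 and 0.0495). Over all settings the adjusted p ranged from 0.00530 to 0.278 for Asns and from 0.00141 to 0.241 for Chac1. Whether Gdf15 differs from these genes was not tested.

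**Figure D4:**
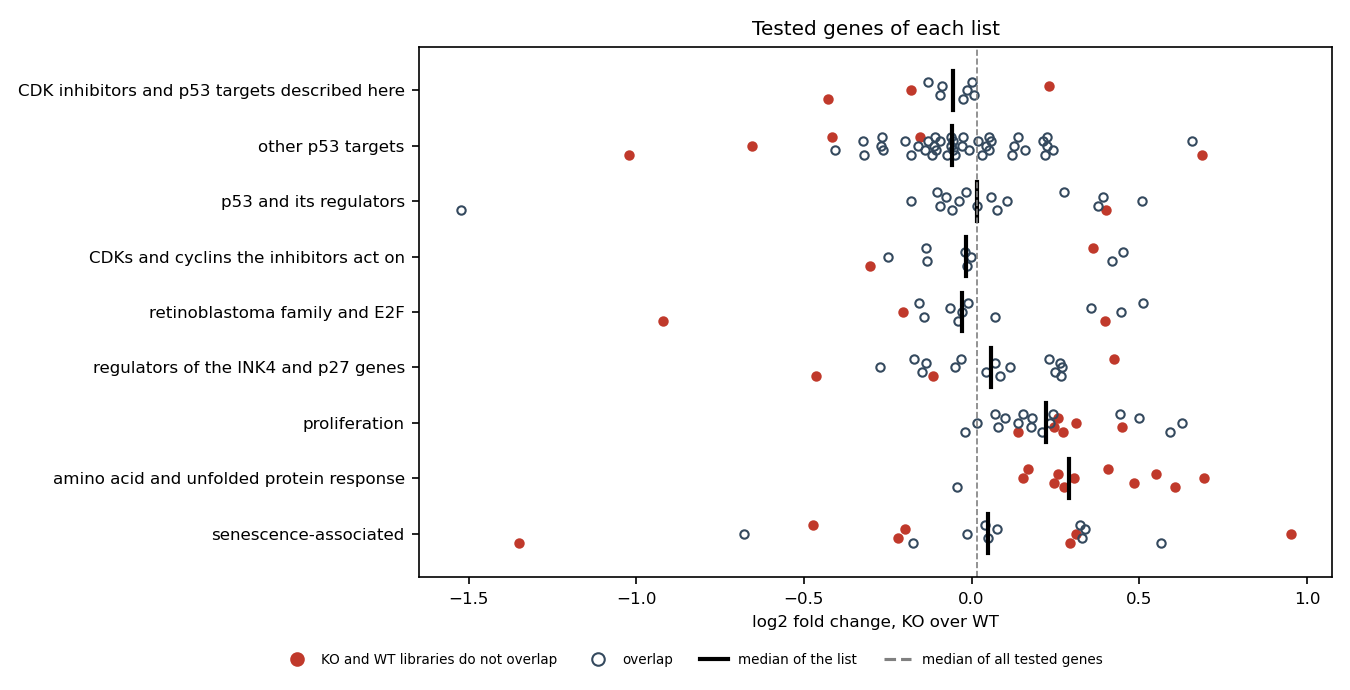
Log2 fold change of KO over WT (horizontal axis) of every tested gene of 9 lists, 1 point per gene, with the median of each list (thick bar) and of all tested genes (dashed line, 0.02). Filled points are genes whose KO and WT libraries do not overlap. The p53 lists lie around the median of all genes, and 11 of the 12 genes of the amino acid and unfolded protein response are filled points right of it.

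The pattern of Cdkn1a over the 6 libraries, in centred log2 CPM, was closest to that of P3h4 (root mean square difference 0.00908), followed by Rnd1 (0.0205), Tmem63a (0.0206) and Gps1 (0.0241) among the 13705 tested genes. Of the 10 genes, Cdkn2a was the closest to it, at 0.117 and rank 1740. As Cdkn1a varied little, such closeness is shared by many genes of small spread.

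The libraries held 16114974 to 18616433 counts, and KO replicate 2 stood apart with 16428 genes detected against 18928 to 19372 in the others and 2.32% of its counts mitochondrial against 1.09% to 1.56%. It also had 351353 counts of the stromal marker Col1a1, against 609823 to 722879 in the others. It was the lowest of the 6 libraries for 5 of the 10 genes and the highest for 1, where over all tested genes it was the lowest for 31.5% and the highest for 32.1%. Without it none of the 10 genes was called, and the Cdkn2b log2 fold change was -0.35 (edgeR adjusted p = 0.0929). Ccrl2 had 0 counts in every KO library and 4, 3 and 0 counts in WT replicates 1 to 3, so it gives little check of the genotypes. All 11 stromal markers had enough reads to test. Of these, 5 had positive and 6 negative log2 fold changes, from -0.81 to 0.57 with a median of -0.15. In 3 of the 11 every KO library lay below every WT library, against 11.8% of all genes. Thy1 was called lower in KO (log2 fold change -0.81 ± 0.10, SE, edgeR adjusted p = 0.00141, called in every setting), and Pdgfra (-0.44, adjusted p = 0.0799) and Cxcl12 (-0.38, adjusted p = 0.176) had every KO library below every WT library without being called. Of the 6 epithelial markers 0 had enough reads to test, and 3 had 0 counts throughout, among them Epcam and Krt5. Summed, the 6 reached 0.0531 to 0.555 CPM per library. The endothelial marker Pecam1 had 0 to 7 counts. Kdr was the only 1 of 7 endothelial markers with enough reads to test, with 21, 10 and 42 counts in KO replicates 1 to 3 and 52, 64 and 49 in WT replicates 1 to 3. Every KO library lay below every WT library, and its log2 fold change was -1.23 ± 0.45 (SE, edgeR adjusted p = 0.241). Macrophage markers were lower in KO. Of 14 tested, 11 were called lower (median -2.01), against 2.31% of all genes, and the summed level of the list was 98.1 to 106 CPM in KO against 370.2 to 414 CPM in WT. None of the 16 in the list was at 0 in all libraries. In bulk RNA, fewer cells of a type and less RNA per cell cannot be told apart, and the part of these cells in the values above was not tested.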

How the data were processed

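Counts per gene for the 6 libraries were deposited by the authors as whole numbers that were not normalized, together with gene names, coordinates and gene lengths in bases, whose derivation no source used here describes. TRIzol was used for the RNA and an NEBNext Ultra kit for the libraries, per the labels' protocols. The submitters' processing notes name HISAT2, StringTie, SAMtools and the mm9 build, without versions or roles. The counting tool and its use of strand are not stated there or in the labels. Positions in the table equal those of GENCODE M21 (GRCm38) for 98.3% of shared identifiers and for all 10 genes, so GRCm38 is used. Column names gave genotype and replicate and matched the sample titles. They also hold the word Ctrl, which no label explains.

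The quasi-likelihood test of edgeR 4.0.16 in R 4.3.3 compared the genotypes, with TMM factors, robust moderation and genes kept by filterByExpr (minimum count 10, minimum total 15). Adjusted p-values are Benjamini-Hochberg over all tested genes, called under 0.05. Each SE was taken as the size of the log2 fold change divided by the root of its F statistic, and 95% intervals use the moderated degrees of freedom. The fit was tested on simulated data, where estimates were unbiased and the share of false calls lay above the nominal level. No simulated library stood apart as KO replicate 2 did, so the simulation does not cover that. CPM are TMM-scaled, and log2 CPM used a prior count of 2. A gene at 0 counts could have up to 3, or 0.161 to 0.186 CPM per library, by counting error only. Replicates differed beyond sampling noise (chi-square per gene 4.54 to 62.9).

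The 10 genes and the lists were chosen with earlier results of these data known. Named genes are the 10, the called genes and the 3 of smallest p of each list, and the 5 genes most like Cdkn1a, of which 1 is not reported here. Other list genes and the sums, shares and ratios were chosen after their values were seen. Alternatives were library totals alone, DESeq2 size factors, upper-quartile scaling, no filter, a minimum count of 50, DESeq2 1.42.0, limma-voom (limma 3.58.1), no robust moderation, a replicate block, and each library left out. The labels give no batch.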

Additional observations from a re-analysis of the deposited data

How the results depend on the processing

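The counts of called genes depended on the settings. Over all genes 366 of 13705 were called (2.67%), against 883 of 24034 without the filter on low counts (3.67%) and 656 of 13702 with DESeq2 (4.79%). With library totals alone 351 of 13705 were called, with DESeq2 size factors 366, with upper-quartile scaling 351 and with a replicate block 331. With single libraries left out 147 to 610 of 14008 to 14131 tested genes were called (610 without KO replicate 2, 182 without KO replicate 3, and 158, 147 and 211 without WT replicates 1, 2 and 3). Of the 10 genes 0 were called, against 1 (Cdkn2b) without the filter or with DESeq2, and 0 to 1 with single libraries left out. Of the genes of the other lists of function 1 was called (Cdkn1c). The number was 3 with library totals alone, 2 with DESeq2 size factors, 2 with upper-quartile scaling and 2 with a replicate block. Without the filter it was 9, with DESeq2 8, and with single libraries left out 1 to 6. The number tested in each list is given where the list is described, and these counts were not tested against the shares over all genes. Ordered by CPM without length, 3 of the 10 genes kept their rank.

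Values near 0 changed sign. Cdkn1a was -0.0019 with the stricter filter and -0.0802 to 0.0703 with single libraries left out (-0.0802 without KO replicate 1, -0.0062 without WT replicate 3). Cdkn2a was -0.0003 with DESeq2 size factors, -0.0096 with the stricter filter, -0.0004 with DESeq2, -0.0057 with limma-voom and -0.0049 with a replicate block, and -0.0812, -0.0277 and -0.0462 without KO replicates 1 and 2 and WT replicate 1 (range -0.0812 to 0.0906). Mdm2 was 0.0172 and Ccng1 0.0773 without KO replicate 1, and 0.0388 and 0.0601 without WT replicate 3, and Ccng1 was 0.0042 with library totals alone. Phlda3 was 0.0132 and Gdf15 0.2033 without KO replicate 2, and Cdkn2d 0.0105 without KO replicate 3. With single libraries left out the ranges were -0.0949 to 0.0388 for Mdm2, -0.1187 to 0.0773 for Ccng1, -0.3422 to 0.0132 for Phlda3, -0.3749 to 0.2033 for Gdf15 and -0.3288 to 0.0105 for Cdkn2d. The cause of these changes was not tested.

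Same-numbered libraries did not stand out as pairs. Their deviations from the group means correlated at 0.137, -0.105 and -0.192, and those of different-numbered libraries at -0.188 to 0.263. With 3 libraries per group this check cannot settle whether libraries were paired or shared a batch. With the replicate block 331 genes were called over all genes and none of the 10, and the Cdkn2b adjusted p was 0.143. Gdf15, with 39 to 112 counts, is the gene of the 10 whose precision depth limits most.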

Other observations

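Genes often expressed by senescent cells were looked at beside the CDK inhibitors. Of 21, 17 could be tested, 0 were called by edgeR and 3 by DESeq2 (4.79% of all genes by DESeq2), 5 had an unadjusted p under 0.05 (14.5% of all genes), and the median log2 fold change was 0.05 with 10 positive and 7 negative. Mmp13, a collagenase, averaged 19.6 ± 4.09 CPM in KO and 10.1 ± 3.45 CPM in WT (SD, n = 3 each, log2 fold change 0.95 ± 0.25, SE, edgeR adjusted p = 0.0848). Tnfrsf1a, a TNF receptor, averaged 149 ± 26.4 CPM in KO and 206.5 ± 2.89 CPM in WT (-0.47 ± 0.13, adjusted p = 0.114), and Ccl2, a monocyte attractant, 1.97 ± 1.02 CPM in KO and 4.99 ± 0.783 CPM in WT (-1.35 ± 0.40, adjusted p = 0.138). These 3 are the genes that DESeq2 called, with adjusted p of 0.0112 for Mmp13, 0.0380 for Tnfrsf1a and 0.0357 for Ccl2, and over all settings it ranged from 6.37e-05 to 0.371 for Mmp13, from 0.0114 to 0.418 for Tnfrsf1a and from 0.00459 to 0.354 for Ccl2. They went in different directions. Mmp13 is also made by cells of the bone lineage. Of 6 tested markers of that lineage, 3 were called higher in KO (Sp7, Ibsp and Alpl), against 0.365% of all genes. Whether the Mmp13 values are tied to these markers was not tested. With single libraries left out, Sp7 was called in 6 of 6 fits, Ibsp in 4 (adjusted p up to 0.0668) and Alpl in 1 (adjusted p up to 0.152).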
